A study of Mus musculus with 3 samples.

Results

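The cells described here are the 117 cells that the deposited cell table places in cluster 10, of 4668 cells in all. They were chosen by that cluster number alone. They carried almost no CD45 antibody tag, and they expressed the homeobox genes Rhox5 and Esx1. Their RNA was closest to that of clusters 0, 2 and 7, which are also Rhox5-positive. The cells of cluster 10 held fewer UMIs than those clusters (a UMI, or unique molecular identifier, marks a transcript that was captured), and few genes set them apart. Globin RNA was abundant in 5 of them. No marker list fixes a cell type, so the cells are called by their cluster number and leading genes throughout.

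The data came from 1 pool of cells of 4 mouse brains, read as 3 libraries: RNA, antibody tags and hashtags. The mice were female C57BL/6 animals of 2 to 3 months. Some brains bore metastases, collected about 2 weeks after E0771 cells, a mouse mammary carcinoma line, had been injected into the carotid artery, and the others were naïve. Animals were perfused, and the brains were dissociated with papain and enriched for mononuclear cells on a Percoll gradient, which sets which cells are seen. Each brain was stained with its own hashtag, an antibody carrying a DNA barcode. The sources used here do not say which hashtag marks a naïve or a metastatic brain, so brains are named by hashtag and no comparison between the conditions was made.

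Rhox5 and Esx1 are X-linked homeobox genes known from reproductive tissue and placenta, and Rhox5 is also expressed by many mouse tumour lines. Krt8 encodes a keratin of simple epithelia, usually paired with Krt18. The choroid plexus, the epithelium that secretes cerebrospinal fluid, is known for very high Ttr, which encodes the thyroid hormone carrier transthyretin. CD45, encoded by Ptprc, is carried by nearly all leukocytes and lost from mature red cells, which are packed with globin.

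The barcodes below are shown because the hashtags assign each cell to a brain and the CD45 tag sets the cells apart from leukocytes without the use of RNA. They are the deposited barcodes of the 4 hashtags and of the CD45 antibody, written 5′ to 3′ with no base singled out.
HTO1: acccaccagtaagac
HTO2: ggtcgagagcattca
HTO3: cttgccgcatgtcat
HTO4: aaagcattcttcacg
CD45: tggctatggagcaga
Any pair of the 4 hashtag barcodes differs at 11 to 13 of 15 bases.

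Cluster 10 was uneven between brains. It held 8 cells of the hashtag 1 brain, 1 cell of the hashtag 2 brain, 40 cells of the hashtag 3 brain and 68 cells of the hashtag 4 brain. These are 0.948% of the hashtag 1 cells (0.410 to 1.86, exact Clopper-Pearson 95% interval) and 0.244% of the hashtag 2 cells (0.0062 to 1.35). They are 2.89% of the hashtag 3 cells (2.07 to 3.91) and 3.35% of the hashtag 4 cells (2.61 to 4.23). The intervals of hashtags 1 and 2 lie below those of hashtags 3 and 4, and they cover counting error only, with 1 brain behind each. Among cells of clusters 10, 0, 2 and 7 together, the share of cluster 10 was 7.84% (3.45 to 14.9), 2.22% (0.0563 to 11.8), 4.85% (3.49 to 6.54) and 5.15% (4.02 to 6.48) in hashtags 1 to 4. On that base all 4 intervals overlap. The shares count cells with abundant globin RNA, described below, which are 4 of the 8 hashtag 1 cells and the only hashtag 2 cell. They thus do not show that the Rhox5-positive cells of cluster 10 were a like share in each brain.

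The assignment to brains was less clear in the small groups. The median share of a cell's hashtag counts that came from its own hashtag was 69.9% in the 8 hashtag 1 cells and 60.0% in the hashtag 2 cell. It was 87.7% in hashtag 3 cells and 91.6% in hashtag 4 cells. Gene levels were therefore compared in the hashtag 3 and 4 brains, which had at least 20 cells each. A level is the sum of a gene's UMIs over the cells of a group, per 10000 UMIs of that group.

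Cluster 10 was the shallow group among the Rhox5-positive clusters. Its cells had a median of 6274 UMIs (range 2550 to 9469), against medians of 13009, 18775 and 27670.5 UMIs in clusters 0, 2 and 7. The median number of genes per cell was 1944, against 3053, 3768 and 4558 in clusters 0, 2 and 7. With each cell thinned to 2000 UMIs, the medians were 893 genes in cluster 10 and 902, 909.5 and 920.5 genes in clusters 0, 2 and 7. Most of the gap in gene number thus went with depth. The median mitochondrial share of a cell's UMIs was 1.67% in cluster 10 and 1.33%, 1.22% and 1.20% in clusters 0, 2 and 7. All are far below the 8.39% of cluster 1, in which choroid plexus genes were highest. The 4 clusters form steps of UMIs per cell, and the part of depth in the deposited clustering was not tested.

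**Figure D1:**
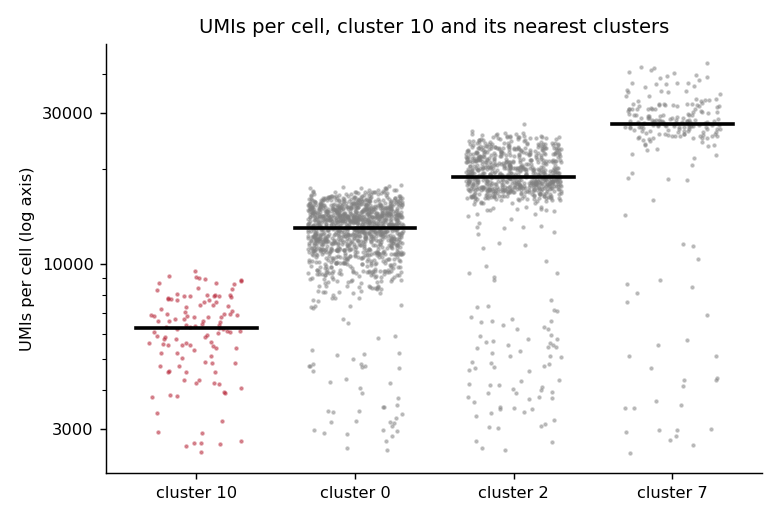
UMIs per cell (log axis) in cluster 10 and in clusters 0, 2 and 7, with 1 point per cell and a black line at the median. No cell of cluster 10 exceeds 9469 UMIs, and the medians step up through clusters 10, 0, 2 and 7.

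The leading genes did not give a cell type. Rhox5 stood at 4.18 UMIs per 10000 in hashtag 3 (3.42 to 5.06, exact Poisson 95% interval) and 4.42 in hashtag 4 (3.81 to 5.10). The other cells of these brains, most of which are Rhox5-positive cells too, stood at 4.52 and 4.47. Esx1 stood at 4.30 in hashtag 3 and 3.78 in hashtag 4, against 5.59 and 3.82 in cluster 0. Krt8 stood at 2.31 and 2.13, against 2.53 and 3.13 in cluster 0. The keratin partner Krt18 had 2 UMIs in all 117 cells. No UMI of Epcam, Krt7, Krt19, Cldn4 or Cldn7, genes of adhesion and tight junctions or keratins of epithelia, was seen among 718062 UMIs. The levels of these genes and of Krt18 in cluster 0 are not given here. Their scarcity is thus not shown to set the 117 cells apart from cluster 0.

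A count of 0 allows up to 0.119 UMIs per 10000 in hashtag 3 and 0.0709 in hashtag 4, taking 3 counts as the limit. Of 11 measured genes of a mammary carcinoma list, 6 were seen, and their summed level was 10.9 in hashtag 3 and 10.8 in hashtag 4. It was 13.5 and 12.1 in cluster 0. Rhox5 had a UMI in 82.9% of cells of cluster 10, against 95.5% in cluster 0, 92.0% in cluster 2 and 91.0% in cluster 7. Thinned to 2000 UMIs, the shares were 55.6% in cluster 10, and 59.7%, 58.0% and 62.7% in clusters 0, 2 and 7. In cluster 1, where Rhox5 is not a marker and free RNA could give UMIs, the share was 36.5% at a median of 7282.5 UMIs, and 12.2% after thinning. These shares pool brains that the clusters hold in unlike parts. In hashtags 3 and 4 alone the shares were 87.5% and 82.4% in cluster 10, against 42.0% and 49.5% in cluster 1. After thinning they were 57.5% and 55.9% in cluster 10, against 14.9% and 18.8% in cluster 1. The Rhox5 share in cluster 10 thus lay above that of cluster 1 at either depth.

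The mean profile of cluster 10 had a Pearson r across 3537 genes of 0.984 with cluster 0, 0.979 with cluster 2 and 0.977 with cluster 7. The next was cluster 9 with 0.95, and cluster 1 was farthest with 0.738. Genes are not independent replicates, and these values describe likeness only. Cell by cell, with the 5 globin-rich cells set aside, the best matching profile was cluster 0 for 90 of 112 cells (80.4%), cluster 2 for 14, cluster 7 for 6 and cluster 9 for 2.

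Globin-rich cells were the sharpest difference within cluster 10. Globin RNA (Hbb-bs, Hbb-bt, Hba-a1 and Hba-a2 summed, since the copies are near-identical) made up 83.2%, 77.8%, 35.8%, 24.6% and 9.43% of the UMIs of 5 cells. In the other 112 cells it reached at most 18.9 UMIs per 10000, with a median of 2.39. No cell lay between 18.9 and 943 per 10000. The limit of 500 per 10000 was set after these values were seen.

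The single cell of hashtag 2 and 4 of the 8 cells of hashtag 1 were globin-rich, and no cell of hashtags 3 or 4 was. All 5 held UMIs of Alas2, the first enzyme of erythroid haem synthesis, and of Car2, a carbonic anhydrase abundant in red cells. Klf1, an erythroid transcription factor, had 3 UMIs in 1 of them and none in the other 4. They had 401, 447, 869, 906 and 990 genes, and 2 or fewer UMIs each of Rhox5 and Esx1. Across the series 29 cells were globin-rich, which is 4.27% of cluster 10 (1.40 to 9.69, Clopper-Pearson), 3.24% of cluster 8, 2.24% of cluster 6 and at most 1.36% of any other cluster. The globin-rich cells alone lift the summed erythroid list to 110 per 10000 over cluster 10. The list stood at 3.22 in hashtag 3 and 2.67 in hashtag 4, so the cluster 10 side of the gene comparisons below holds none of these cells. The cells compared with it hold some. In hashtag 3 these include 2 cells of cluster 0, 1 of cluster 2 and 1 of cluster 7, and in hashtag 4 they include 1 of cluster 0. In cluster 7 the list stood at 12.9 in hashtag 3 and 5.06 in hashtag 4. Hba-a1 had the largest drop against cluster 7, with a mean log2 difference of −1.68.

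**Figure D2:**
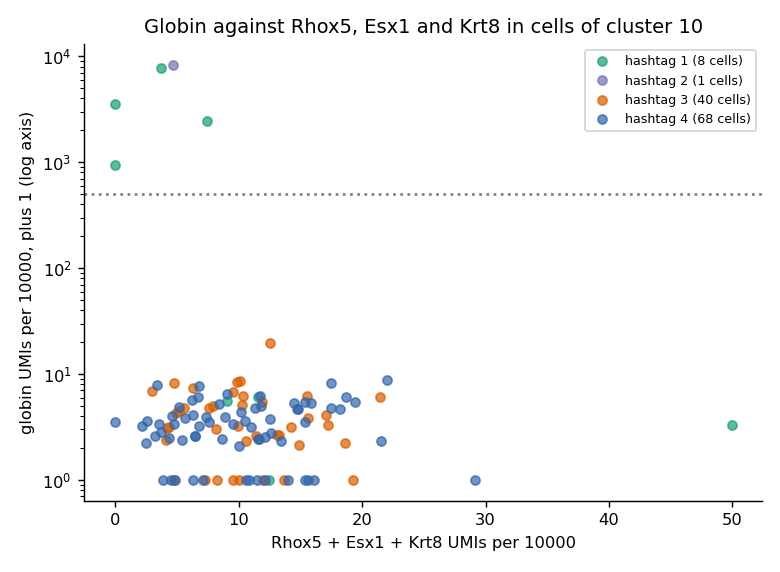
Globin UMIs per 10000, plus 1 (log axis), against summed Rhox5, Esx1 and Krt8 UMIs per 10000, with 1 point per cell of cluster 10 coloured by hashtag. The 4 hashtag 1 cells and the hashtag 2 cell above the dotted line, drawn at the 500 per 10000 limit, stand apart from the other 112 cells.

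Few genes were higher in cluster 10 than elsewhere. A gene was counted when it passed 2-fold in both brains, with 0.1 per 10000 added before the log2, among genes seen in at least 25% of cells of either side. The clusters were made from these genes, so all such counts are descriptions with no test. Against all other cells of the same brain, 1 of 3537 genes was higher (0.0283%) and 64 were lower (1.81%). The median log2 difference over all 3537 genes was −0.05. Against cluster 0, 2 of 4117 genes were higher (0.0486%) and 0 lower (0%). Against cluster 2, 2 of 5178 were higher (0.0386%) and 5 lower (0.0966%). Against cluster 7, 5 of 6113 were higher (0.0818%) and 8 lower (0.131%).

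The differences of the hashtag 3 and hashtag 4 brains resembled each other little. Across genes, their Pearson r was 0.43 against other cells, but 0.10, 0.13 and 0.16 against clusters 0, 2 and 7. Counts were simulated at these group sizes over 4115 genes for the comparison with cluster 0. The same count found 100 of 100 genes raised 4-fold, 84 of 100 genes lowered 4-fold and 0 of 3915 unchanged genes. All planted changes were 4-fold, so the check does not show how well changes near 2-fold are found. The simulated counts were drawn as group totals from the same profile in both brains. They held counting error only, with no variation between cells or brains, which leaves little room for false calls. The check therefore does not give the rate of false calls in the real data. The real comparison with cluster 0 held 4117 genes, so the check did not cover every gene of that comparison. Which genes it left out is not given here, so it may not cover the genes counted as higher.

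Tacc1, on chromosome 8, encodes a coiled-coil protein of centrosomes and microtubules, and was the gene higher in all 4 comparisons. It had a UMI in 25.6% of cells of cluster 10, and in 18.1%, 25.2% and 36.8% of cells of clusters 0, 2 and 7. Against cluster 0 it thus passed the 25% filter narrowly, and through cluster 10 alone. In clusters 1, 8 and 9 it had a UMI in 8.86%, 9.19% and 22.8% of cells. Its share over all other cells is not given here, so it may have passed that filter through cluster 10 alone too. Its place as the gene higher than in all other cells is a description only. It had 15 UMIs in hashtag 3 (0.597 per 10000, 0.334 to 0.985) and 23 in hashtag 4 (0.544, 0.345 to 0.816). The other cells stood at 0.232 and 0.186, and cluster 0 stood at 0.175 and 0.171. The log2 difference from cluster 0 was 1.34 in hashtag 3 and 1.25 in hashtag 4. Its level over all of cluster 10, 0.529, was no higher than in cluster 3 (0.532) or cluster 4 (0.716). Thinned to 2000 UMIs, a Tacc1 UMI was seen in 9.40% of cells of cluster 10, against 3.63%, 3.21% and 4.72% in clusters 0, 2 and 7.

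Yme1l1, on chromosome 2, encodes a protease of the inner mitochondrial membrane. It stood at 0.876 per 10000 in hashtag 3 and 0.662 in hashtag 4, against 0.254 and 0.291 in cluster 0. The log2 difference from cluster 0 was 1.46 in hashtag 3 and 0.96 in hashtag 4, so it passed 2-fold in both brains only against clusters 2 and 7. Abhd2, on chromosome 7, encodes a lipid hydrolase that responds to progesterone. It stood at 1.83 in hashtag 3 and 1.51 in hashtag 4, against 0.857 and 0.706 in cluster 0, which is at the 2-fold line in both brains (log2 1.01 and 1.0). Abhd2 was far higher in cluster 1 (6.94), cluster 5 (5.37) and cluster 4 (4.02), so it does not mark cluster 10. Rpgrip1, which encodes a ciliary scaffold protein, and Pan3, a subunit of a poly(A)-shortening complex, passed 2-fold only against cluster 7, with mean log2 differences of just over 1.

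**Figure D3:**
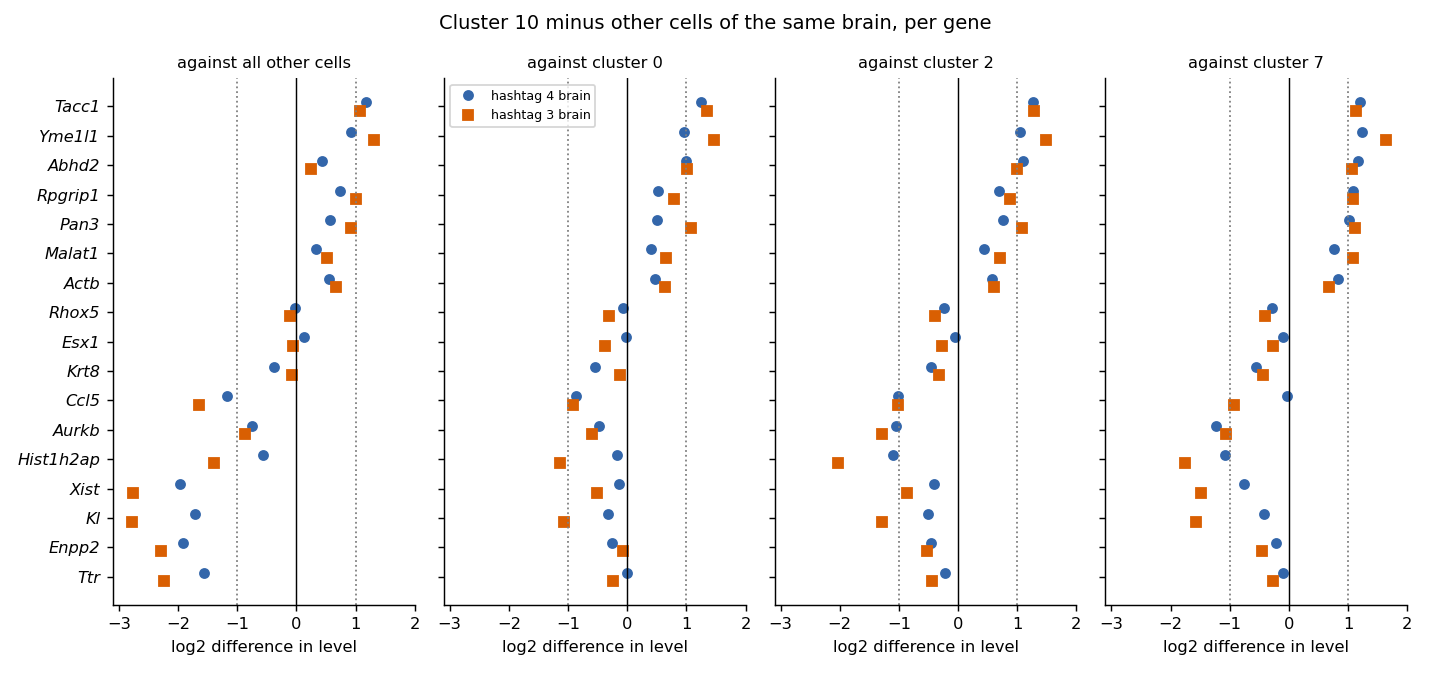
Log2 difference in level, cluster 10 minus all other cells or minus cluster 0, 2 or 7 of the same brain, for 17 genes (hashtag 4 brain as circles, hashtag 3 brain as squares, dotted lines at 2-fold). Tacc1 lies right of the 2-fold line in all 4 panels, and the choroid plexus genes Kl, Enpp2 and Ttr lie far left only against all other cells.

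The genes lower than in all other cells included markers of the choroid plexus and of leukocytes. Of 10 choroid plexus genes, 8 passed the filter and 8 of these were lower, with a median log2 difference of −1.91. Over all genes past the filter, 64 of 3537 were lower (1.81%). A gene can pass the filter through the other cells alone, and these include cluster 1, where choroid plexus genes were highest. The filter thus favoured lower levels of such genes in cluster 10, and the count is a description only. Ttr stood at 101 per 10000 in hashtag 3 and 114 in hashtag 4, against 479 and 338 in other cells. Enpp2, which encodes the phospholipase autotaxin, stood at 3.06 and 2.81, against 15.4 and 10.9. Kl, which encodes klotho, stood at 0.119 and 0.260, against 1.40 and 1.08. Igfbp2, Clic6, Sostdc1, Trpm3, Kcnj13 and Prlr, also known from choroid plexus, had mean log2 differences from −2.01 to −1.81. The summed choroid plexus list, 114 per 10000 over all brains, was the lowest of the 11 clusters. Within brains it stood at 105 in hashtag 3 and 118 in hashtag 4, against 124 and 119 in cluster 0. A low level was thus shared with the nearest cluster. Each of the 112 cells that were not globin-rich held Ttr at 36.5 to 446 per 10000. Its part as free RNA was not tested.

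Leukocyte genes were lower as well. The 4 genes of MHC class II presentation that passed the filter, of 7 measured, were all lower, with a median log2 difference of −1.57. Among monocyte and macrophage genes 3 of 3 past the filter were lower, and among pan-leukocyte genes 3 of 4. Leukocyte genes too can pass the filter through the other cells alone, which include immune clusters 3 and 6. The filter therefore favoured these counts as well, and they are descriptions only. Ctss, which encodes the lysosomal protease cathepsin S, stood at 0.438 in hashtag 3 and 0.497 in hashtag 4, against 2.1 and 1.79 in other cells. Ptprc had 4 UMIs in 4 of the 117 cells. Xist, the RNA that coats the inactive X chromosome, was the gene with the largest drop, at 0.199 in hashtag 3 and 0.284 in hashtag 4, against 1.92 and 1.39 in other cells. In cluster 0 it stood at 0.327 and 0.321, so low Xist was shared with the nearest cluster. Of 34 lists of markers and programmes, 8 had a median past 2-fold against other cells, all of them lower. The filter favours that direction for genes high in the other cells. No list did so against cluster 0 or 2, and 1 did against cluster 7, the erythroid list (median −1.21). Its median was −1.67 in hashtag 3 and −0.63 in hashtag 4, so it passed 2-fold in hashtag 3 only. In that brain cluster 7 held 1 globin-rich cell.

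Against the nearest clusters, the summed levels of RNAs encoded in mitochondria and of Malat1 stood higher in both brains. The 13 mitochondrially encoded genes summed to 176 per 10000 in hashtag 3 and 181 in hashtag 4, against 138 and 141 in cluster 0. Of the 12 past the filter, 11 were higher than in cluster 0 in both brains, none past 2-fold, with a median log2 difference of 0.33. For comparison, 19.9% of the 4117 genes were higher in both brains and 34.4% lower. Malat1, a nuclear-retained long non-coding RNA, stood at 136 in hashtag 3 and 152 in hashtag 4, against 86.5 and 116 in cluster 0. Of the 4 genes of the nuclear-retained and long non-coding list past the filter, 2 were higher and 2 lower in both brains against clusters 0 and 2. Single cells of cluster 10 ranged widely in it. Malat1 lay between 3.64 and 964 per 10000 in hashtag 3 cells (median 63.7) and between 5.07 and 1268 in hashtag 4 cells (median 95.2). These medians lie below the summed Malat1 levels of cluster 0, whose medians over cells are not given here. The higher summed level is thus not shown to hold for the typical cell. Actb, which encodes cytoskeletal beta-actin, stood at 126 (hashtag 3) and 120 (hashtag 4), against 81.4 and 86.2 in cluster 0. Single cells ranged from 7.78 to 443.

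Cell cycle genes gave a mixed picture. Replication histone genes summed to 7.09 in hashtag 3 and 13.8 in hashtag 4, against 14.9 and 15.5 in cluster 0 and 27.4 and 29.5 in cluster 2. Most of this was Hist1h2ap, an H2A gene with near-identical copies, at 6.21 and 12.8, against 25.7 and 27.6 in cluster 2. A single hashtag 4 cell held 116 of its 743 UMIs. Against cluster 0 cells under 9500 UMIs the direction was not shared, with Hist1h2ap at a log2 difference of −0.49 in hashtag 3 and 1.92 in hashtag 4 (12.8 in cluster 10 against 3.31 in those cells). Aurkb, which encodes a mitotic kinase, stood at 0.0796 and 0.118, against 0.340 and 0.349 in cluster 2. Ccnf, which encodes cyclin F, had 0 UMIs in cluster 10, against 0.168 and 0.159 per 10000 in cluster 7. The 20 genes of G2 and M phase summed to 20.9 in hashtag 3 and 14.9 in hashtag 4, against 18.0 and 17.1 in cluster 0. In cells thinned to 2000 UMIs, at least 5 such UMIs were seen in 33.3% of cluster 10 and in 28.0%, 38.3% and 45.8% of clusters 0, 2 and 7, while cluster 1 gave 2.95%. In hashtag 3 alone the shares were 40.0% in cluster 10 and 33.3%, 38.6% and 36.8% in clusters 0, 2 and 7. In hashtag 4 they were 27.9% in cluster 10 and 26.3%, 42.3% and 52.1% in those clusters. The chemokine gene Ccl5 stood at 0.398 and 0.662, against 0.912 and 1.44 in cluster 2.

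**Figure D4:**
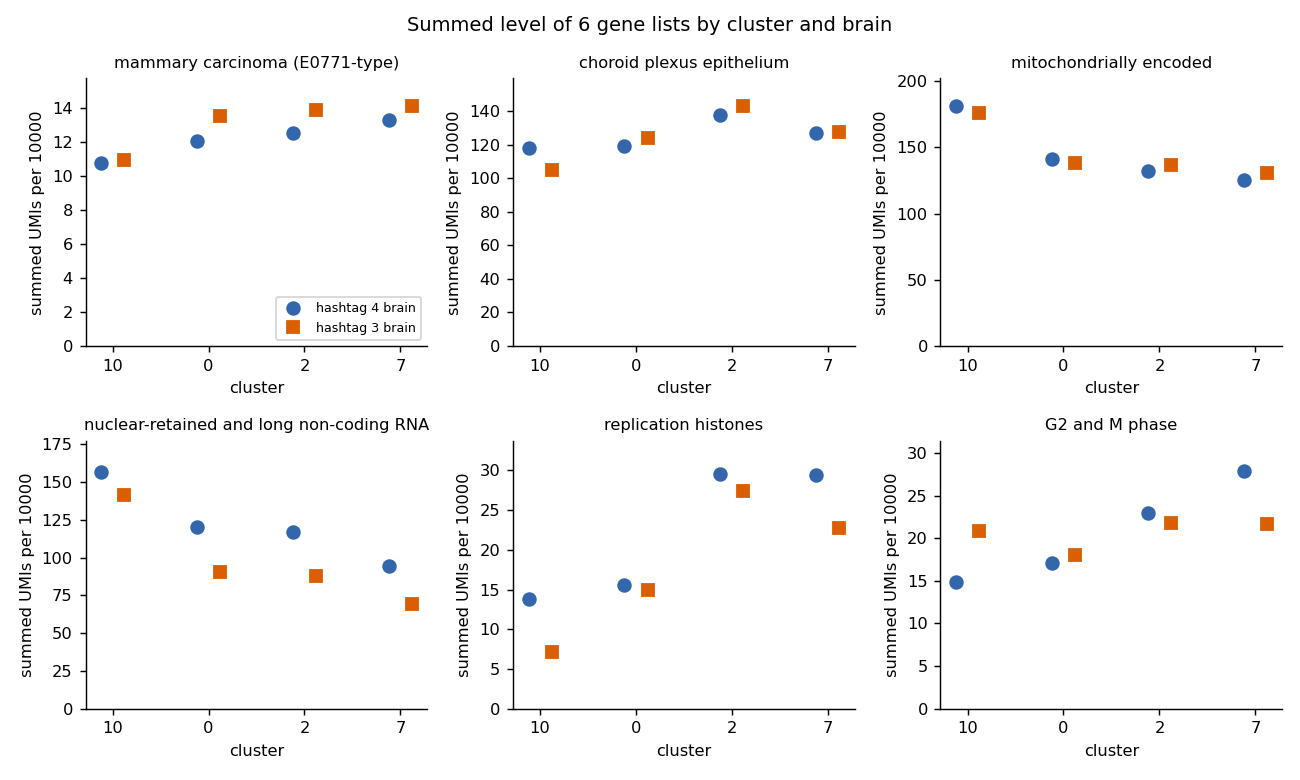
Summed UMIs per 10000 of 6 gene lists in clusters 10, 0, 2 and 7 (hashtag 4 brain as circles, hashtag 3 brain as squares, axes from 0). The mitochondrially encoded and long non-coding lists are highest in cluster 10 in both brains, and replication histones are highest in clusters 2 and 7.

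Against the shallower cells of cluster 0 the differences were others. Cluster 0 had 30 cells under 9500 UMIs in hashtag 3 and 70 in hashtag 4. Only this upper limit was matched: cluster 10 had medians of 6203 and 6392 UMIs in these brains, against 8376.5 and 8926 UMIs in those cells. Against these, 0 of 4117 genes were higher in cluster 10 (0%) and 14 were lower (0.34%). Tacc1 had log2 differences of 0.78 and 1.16, and Abhd2 came to 0.10 and 0.54. Yme1l1 came to 2.08 and 0.79, and Malat1 to 0.43 and 0.00. The median mitochondrial share was 1.66% in hashtag 3 and 1.75% in hashtag 4 in cluster 10, against 2.03% and 1.75% in those cells. The 14 lower genes included Ttr, Enpp2, Kl, Igfbp2, Sostdc1 and Xist. Ttr stood at 101 in hashtag 3 and 114 in hashtag 4 in cluster 10, against 524 and 265 in the shallow cells and 102 and 103 in the deeper cells of cluster 0. The choroid plexus RNA of cluster 10 was thus close to that of the deep cells of cluster 0 and below that of its shallow cells. This comparison was added after the data were seen.

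The brains differed modestly within cluster 10. Levels in hashtag 4 and hashtag 3 had a Pearson r of 0.954 across 3537 genes, and 143 genes (4.04%) passed 2-fold. Of 11671 genes, 18 were higher in hashtag 4 past 2-fold with Poisson intervals that did not overlap (0.154%), and 31 were higher in hashtag 3 (0.266%). Among the 3537 genes past the 25% filter these counts were 13 (0.368%) and 16 (0.452%). With 1 brain each, brain, hashtag and any condition cannot be told apart. The direction was the same in cluster 0 for 15 of the 18 and for 23 of the 31, and past 2-fold there for 0 and 1 of them. The share of all genes with the same direction in both clusters is not given here. These counts therefore do not show that the called genes match cluster 0 more than other genes do.

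Of the 18 genes higher in hashtag 4, Nfkbia, Isg15, Ifit1 and Ccl2 are described here, chosen after their values were seen. Nfkbia, the inhibitor induced by NF-kB, stood at 2.67 per 10000 in hashtag 4 (2.20 to 3.21) and 0.955 in hashtag 3 (0.612 to 1.42). Isg15, a ubiquitin-like protein induced by interferon, stood at 1.21 and 0.517 (hashtags 4 and 3). The interferon-induced gene Ifit1 had 20 UMIs in 12 cells of hashtag 4 and 1 UMI in hashtag 3. The monocyte attractant Ccl2 stood at 1.16 and 0.358, with 17 of its 49 hashtag 4 UMIs in 1 cell. The same cell held 8 of the 51 Isg15 UMIs and 5 of the 20 Ifit1 UMIs of hashtag 4. Without it, a choice made after the data were seen, Ccl2 stood at 0.765 in hashtag 4, Isg15 at 1.03 and Ifit1 at 0.359, and their intervals overlapped those of hashtag 3. Nfkbia stood at 2.63 without that cell (2.16 to 3.17) and still passed the rule. In cluster 0 the log2 differences between these brains were 0.21 for Nfkbia, 0.10 for Isg15, 0.36 for Ifit1 and 0.54 for Ccl2. The difference between clusters was not tested. The summed interferon list stood at 23.6 in hashtag 4 and 16.3 in hashtag 3 in cluster 10, and at 26.1 and 21.1 in cluster 0.

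Among genes higher in hashtag 3, Cirbp, which encodes a cold-inducible RNA-binding protein, was the 1 gene that passed 2-fold between these brains in cluster 0 too. It stood at 0.780 in hashtag 4 and 1.79 in hashtag 3, and at 0.673 and 1.87 in cluster 0. H1f0, which encodes a linker histone, stood at 1.28 in hashtag 4 and 2.67 in hashtag 3, and at 1.45 and 2.32 in cluster 0. Csf2, which encodes the myeloid growth factor GM-CSF, had 77 UMIs in hashtag 3 and 0 in hashtag 4, and all 77 came from 1 cell. That cell had 3181 UMIs, 3 of Rhox5, 1 of Esx1 and none of Ptprc, and a CD45 tag count of 34. It also held all 7 UMIs of Krt17 and 14 of the Acp6 UMIs. The whole series held 86 Csf2 UMIs. For 5 of the 31 genes over 50% of the UMIs came from 1 cell, against 0 of the 18.

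The antibody tags, a readout apart from the RNA, gave low CD45 and CD11b. The median CD45 tag count was 40.5 in hashtag 1, 27 in hashtag 3 and 32 in hashtag 4 cells of cluster 10, against 44.5, 47 and 48 in clusters 0, 2 and 7 pooled and 2336, 6890 and 7087 in immune clusters 3 and 6. The groups of medians do not overlap. A CD45 count of at least 300 was seen in 2 of 117 cells (1.71%, 0.208 to 6.04), in 6.85% of clusters 0, 2 and 7 and in 96.7% of clusters 3 and 6. On log2 of the mean count plus 1, CD45 lay lower by −2.90 ± 1.09 than in clusters 0, 2 and 7 (SD, n = 3 brains, lower in 3 of 3, two-sided exact sign-flip permutation p = 0.25, adjusted 0.429 over 12 comparisons). The difference was −3.96, −2.95 and −1.79 in hashtags 1, 3 and 4. The hashtag 1 value rests on 8 cells of cluster 10, 4 of them globin-rich, against 94 cells of clusters 0, 2 and 7. Of those, the 41 cells of cluster 2 had a median mitochondrial share of 13.2%, so this brain is not a like replicate of the other 2. The means also include cells of high CD45. On medians the log2 differences were −0.13, −0.78 and −0.57 in hashtags 1, 3 and 4. Hashtag counts per cell were lower as well. Their medians were 234.5, 426 and 832.5 in cluster 10, against 428, 795.5 and 1305.5 in cluster 0. Cluster 0 cells under 9500 UMIs had median CD45 counts of 37 in hashtag 3 and 40.5 in hashtag 4. Tag counts were not scaled to a cell's tag total, so the part of tag capture in these small differences was not tested. Against clusters 3 and 6 the difference of means was −7.12 ± 0.79 (lower in 3 of 3, exact p = 0.25). CD11b, a myeloid integrin, differed by −2.52 ± 1.1 and −6.97 ± 0.41 in the same comparisons of means (exact p = 0.25 each, n = 3). With 3 brains 0.25 is the smallest p this test can give.

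CD86, a costimulatory ligand, and the T cell proteins CD3e, CD4 and CD25 had medians of 0 to 8 counts in cluster 10. In the hashtag 4 brain 1 cell set the means. It had 1607 CD45, 1550 CD11b, 3002 CD86, 581 CD3e, 1400 CD4 and 3090 CD25 counts with 8622 hashtag counts, but 2550 UMIs, 1 Rhox5 UMI and no Ptprc UMI. With this cell and the other cell of at least 300 CD45 counts left out, the hashtag 4 means were 38.8 for CD45, 6.26 for CD86, 1.73 for CD3e, 6.15 for CD4 and 6.24 for CD25. With both cells these means were 68.5, 51.7, 10.2, 26.8 and 51.8. With cells of at least 300 CD45 counts left out of cluster 10 and of clusters 0, 2 and 7 alike, the log2 differences of means in hashtags 1, 3 and 4 were −0.23, −0.88 and −0.47 for CD45. For CD86, CD4 and CD25 they were also negative in 3 of 3 brains, and for CD3e they were 0.01, −0.42 and 0.01.

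**Figure D5:**
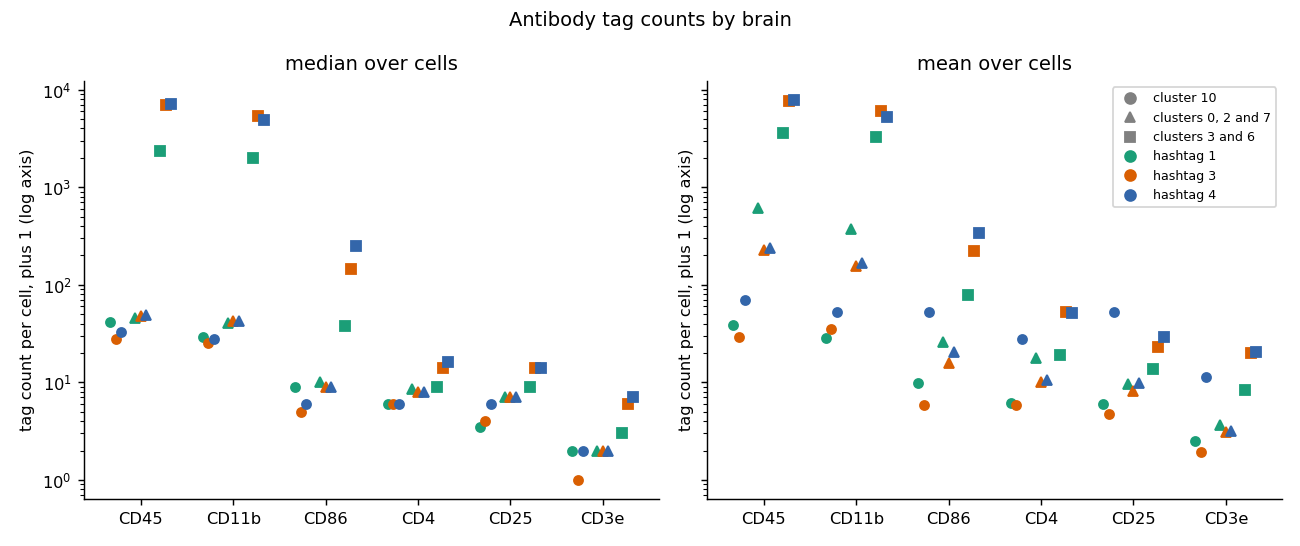
Antibody tag counts per cell, plus 1 (log axis), as medians (left) and means (right) over cells of cluster 10 (circles), clusters 0, 2 and 7 (triangles) and clusters 3 and 6 (squares) in the brains of hashtags 1, 3 and 4. CD45 and CD11b of cluster 10 lie far below clusters 3 and 6, and the raised hashtag 4 means of CD86, CD4, CD25 and CD3e have no counterpart in the medians.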

How the data were processed

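Per the labels' protocols, RNA was read with the 10x Genomics single-cell 3' assay, version 2, and tags by CITE-seq and cell hashing. The submitters' processing notes list Cell Ranger 2.1, Seurat 2.3.4 and mm10 with no role for any, and CITE-seq-Count is named by the series' design text. The deposited expression values are the natural log of 1 plus UMIs per 10000 of a cell, made by the authors. The deposited cell table gives UMI counts, tag and hashtag counts, the mitochondrial fraction, hashtag class and cluster. How cells were filtered is not given in the sources used here. No doublet caller was run. The 4668 barcodes are distinct.

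The deposited logs and UMI totals together give back the UMI count of each gene: 99.8% of nonzero values came out whole within 0.01, and summed counts lay within 10 of the totals. Over all clusters, the brains of hashtags 1 to 4 held 4623688, 2529485, 17094233 and 26196431 UMIs.

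Levels, intervals (exact Poisson, exact Clopper-Pearson, both 95% and counting error only) and the exact sign-flip test used Python 3.11.15, numpy 2.4.6, pandas 2.3.3 and SciPy 1.17.1. Chromosomes come from RefSeq on GRCm38.p6. The cluster, the gene lists and the comparisons were chosen with earlier results of these data known. Genes named are those past 2-fold in both brains by rank (30 highest and 15 lowest against other cells, 10 and 10 against each near cluster), list members, tag genes and genes past the interval rule between brains. Malat1 and Actb single-cell ranges, Csf2 and the globin-rich cells were singled out after their values were seen. The rule for comparing brains needed 20 cells for genes and 5 for tags, so the hashtag 2 brain entered neither. Alternatives were the mean over cells, a pseudocount of 1, other filters, cells with at least 80% own hashtag, thinning, and leaving out each brain. The limit of 300 CD45 counts on both sides and the hashtag 4 cell left out were added after the data were seen.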

Additional observations from a re-analysis of the deposited data

Results flagged for a closer look

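In the hashtag 4 brain the mean tag counts of cluster 10 stood far from those of the other 3 brains: 51.7 for CD86, 10.2 for CD3e, 26.8 for CD4 and 51.8 for CD25. A single cell, with 3002 CD86 and 3090 CD25 counts, lies behind these means, and the medians were 5 for CD86, 1 for CD3e, 5 for CD4 and 5 for CD25. The median mitochondrial share of 0.513% in the hashtag 2 brain stood apart from the others and is that of its single cell, which is globin-rich. Chance alone would mark about 1 in 20 groups in this way, and the measures come from the same cells.

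Globin RNA appeared in the cells left out of the gene comparisons. It summed to 1031 UMIs per 10000 in the 8 hashtag 1 cells and 8315 in the hashtag 2 cell, against 2.99 in hashtag 3 and 2.55 in hashtag 4.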

How the results depend on the processing

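Genes past 2-fold rested on few UMIs and on both brains being required. Counts below are higher, then lower, against other cells, cluster 0, cluster 2 and cluster 7 in turn, beside 1 and 64, 2 and 0, 2 and 5, and 5 and 8. With the mean over cells they were 0 and 125, 1 and 0, 1 and 10, and 1 and 61. With a pseudocount of 1 they were 0 and 3, 0 and 0, 0 and 1, and 0 and 1. Leaving out 1 brain gave 3 to 6 and 83 to 169, 5 to 11 and 8 to 76, 9 to 15 and 40 to 122, and 27 to 31 and 73 to 167. With the 10% filter 2 genes were higher than in other cells and 4 than in cluster 2, and with no filter 2, 4 against cluster 2 and 8 against cluster 7. In cells with at least 80% own hashtag 2 genes were higher and 38 lower than in other cells, 2 lower than in cluster 0, 8 lower than in cluster 2 and 13 higher than in cluster 7. With the median difference set to 0, 1 gene was lower than in cluster 2. Against cluster 0 cells under 9500 UMIs the counts were 0 and 14, and 1 list median passed 2-fold. List medians past 2-fold came to 13, 2 and 5 against other cells, cluster 2 and cluster 7 with the mean over cells, and to 0 against other cells and cluster 7 with a pseudocount of 1. In cells with at least 80% own hashtag the hashtag 2 share was 0% and the median mitochondrial share 1.74%. Against clusters 0, 2 and 7, CD86 (−0.50) turned to 0.23 and CD4 (−0.32) to 0.50 in cells with at least 80% own hashtag, and CD4 to 0.29 without globin-rich cells. CD3e (0.20) turned to −0.33 and CD25 (0.31) to −0.68 with medians, and to −0.13 and −0.44 with cells under 300 CD45 counts on both sides. Leaving out 1 brain gave −0.62 to 0.64 for CD3e, −1.18 to 0.29 for CD4 and −0.74 to 0.87 for CD25. CD45 and CD11b stayed lower in each alternative run, but by −0.49 and −0.62 with medians, and −0.53 and −0.76 with cells under 300 CD45 counts on both sides. The cause of these moves was not tested.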
